A study of Mus musculus with 2 samples.

Results

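The 4 genes described here are Cdkn1c, Ccng2, Ccng1 and Btg1, which are linked to cells slowing or leaving the division cycle. They were picked by symbol from a table of 2381 gene loci that differed in RNA level between Trrap-deleted and control mouse cortex, and each had 1 row. RNA was sequenced from the cortex of embryos at E14.5, mid-neurogenesis, on a mixed B6/129 background. One library came from TrrapF/F NestinCre+ embryos, in which both floxed Trrap alleles can be removed in the cells where the Nestin-Cre transgene acts, chiefly neural progenitors and the cells they produce. The other was entered as wild type, but its description gives TrrapF/+ NestinCre+, so the control had 1 floxed allele and the same Cre. Cells outside the neural lineage, such as vessels, microglia and meninges, are not the intended targets of this transgene, and the labels do not say how far the dissection removed them. The labels give neither the number of embryos in a library nor their sex.

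Cells in the developing cortex stop dividing as they become neurons, and the timing is set in G1, when cyclin-dependent kinases (CDKs) bound to cyclins either push the cell into S phase or are held back by inhibitors. Cdkn1c encodes p57, a CDK inhibitor of the Cip/Kip family, and is expressed from the maternal allele. Ccng1 and Ccng2 encode the G-type cyclins, which have the cyclin fold but act with protein phosphatase 2A and not as usual CDK activators. Ccng1 is a standard target of p53, and Ccng2 is raised by FoxO transcription factors in cells that stop growing. Btg1 belongs to the BTG/TOB family of antiproliferative proteins, which bind the CCR4-NOT complex that shortens the poly(A) tails of mRNAs. Trrap is the large scaffold of the SAGA-type and Tip60 histone acetyltransferase complexes and is brought to DNA by factors such as Myc, E2F and p53. The question of the series is whether and how Trrap, through histone acetylation, shapes progenitor division and the fate of the daughter cells.

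The table holds FPKM values, which scale sequenced fragments for transcript length and library size, so levels can be compared between genes of a library. Every row in it had passed the authors' own test, with no q-value above 0.04998, so a gene without a row is called not listed and nothing is said of its level. There was 1 library per genotype. No value below has a standard deviation, no test between genotypes could be run, and the depth of the libraries is unknown. The authors' deposited p-values and q-values, quoted below, therefore cannot include the variation between libraries of a genotype. The 4 genes were chosen by their listing in this table, with their FPKM values and ratios in this same contrast known, so their levels and ratios are a description. Trrap had no row, so the genotype labels could not be checked on its RNA. The libraries also differed in sex-linked RNA, with Xist at 313 FPKM (control) and 142 (Trrap-deleted) and the Y-linked gene Eif2s3y at 0.111 and 32.8. Sex composition therefore moved with genotype, and its part in the values below was not tested.

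Cdkn1c, Ccng2 and Btg1 were lower in the Trrap-deleted cortex and Ccng1 was higher. Of all 2381 listed loci, 999 (42.0%) were lower and 1382 (58.0%) were higher. The choice of the genes used this same contrast, so nothing is read from 3 lower members beside that share. Cdkn1c and Ccng2 differed by at least 2-fold in the lower direction, as did 13.6% of listed loci. Summed over the 4 genes, the level was 129.6 FPKM for the control and 74.7 FPKM for the Trrap-deleted library. The plot of levels by library shows that the 2 genes with the highest control levels had the largest falls in FPKM.

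**Figure D1:**
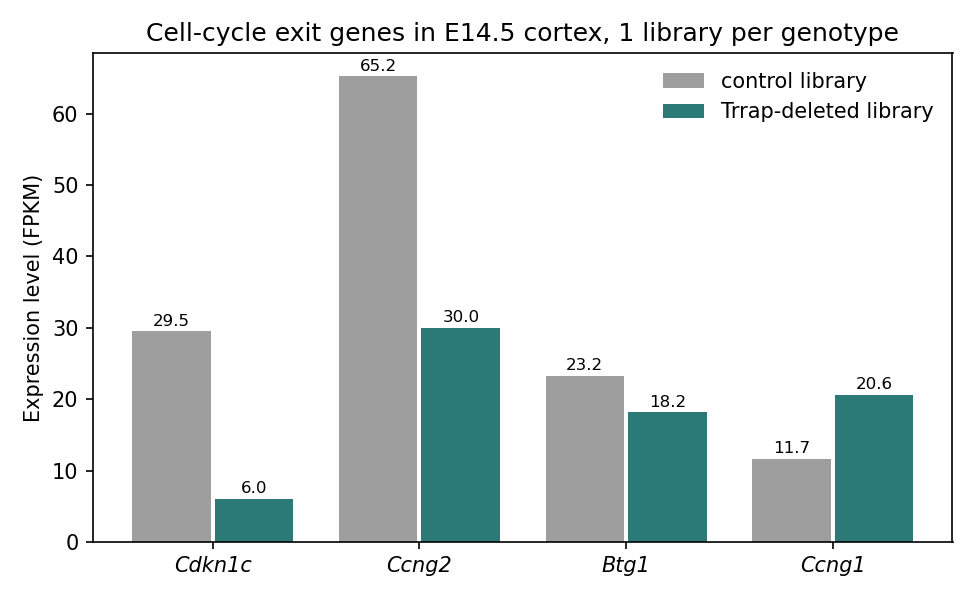
Bars give the expression level (FPKM, axis from 0) of each gene in the control library (grey) and the Trrap-deleted library (green), with 1 library per genotype and hence no error bars. Cdkn1c, Ccng2 and Btg1 are lower in the Trrap-deleted library, and Ccng1 goes from 11.7 to 20.6 FPKM.

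Upstream sequences of Ccng1 and Btg1 are shown because they belong to the member that was higher and the member with the smallest difference and hold different promoter elements. They come from RefSeq's promoter windows on GRCm38.p6, which held 3 of the 4 genes. The expression table is on mm9, so its loci are not on the same coordinates. Both stretches run 5′ to 3′ on the gene's own strand and end before the annotated transcription start of RefSeq and of GENCODE M21. Capitals mark matches on either strand to the CCAAT box (CCAAT), the TATA box (TATAAA) and the FoxO element (TGTTTAC) in Btg1, and to the CCAAT box in Ccng1. The first is Ccng1, minus strand, chr11:40755312-40755536, and the second is Btg1, plus strand, chr10:96616751-96617000.
Ccng1: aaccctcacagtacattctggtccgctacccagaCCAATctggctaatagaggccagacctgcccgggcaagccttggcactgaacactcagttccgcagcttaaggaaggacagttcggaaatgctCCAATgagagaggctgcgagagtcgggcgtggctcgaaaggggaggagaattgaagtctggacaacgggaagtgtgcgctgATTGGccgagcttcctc
Btg1: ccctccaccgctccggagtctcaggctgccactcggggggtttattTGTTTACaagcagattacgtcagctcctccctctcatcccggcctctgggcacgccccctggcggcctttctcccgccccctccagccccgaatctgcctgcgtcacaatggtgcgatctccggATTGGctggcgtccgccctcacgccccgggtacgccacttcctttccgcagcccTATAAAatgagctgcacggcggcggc

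The 250 bases before the RefSeq start of Ccng1 held 3 CCAAT boxes, at 216, 123 and 42 bases before the start. The CCAAT box is the binding element of the factor NF-Y. At least 1 match was present in 33.8% of the 32851 RefSeq windows of that length, and at least 3 in 2.79%. Btg1 had 1 CCAAT box at 80 bases and a TATA box at 26 bases before its start, where 12.4% of windows held a TATAAA match anywhere. Btg1 also had the FoxO element at 204 bases before the start, which 3.17% of windows held. The Ccng2 window held none of these 3 elements. It did hold 1 GC box (GGGCGG, present in 32.7% of windows) at 41 bases, and Btg1 held 2, at 131 and 68 bases. The matches named here do not overlap each other. That window lies within the longer gene model of GENCODE M21 and is not printed. The E-box CACGTG, to which Myc binds (6.02% of windows), had no match in any of the 3 windows, and neither had the E2F letters TTTCCCGC (0.895%) or TTTGGCGC (0.417%). A match or its absence describes only the letters of these windows.

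Cdkn1c, the CDK inhibitor, had the largest difference of the 4. Its level was 29.5 FPKM in the control and 6.002 FPKM in the Trrap-deleted library, which is 20.3% of the control level and a log2 ratio of -2.30. It lay on mm9 chromosome 7, 150644241 to 150646977. Among the 2306 symbols with a row of their own, Cdkn1c ranked 25 from the lowest by log2 ratio. The authors' deposited table gives it a p-value of 1.78e-15 and a q-value of 5.66e-13. Of 787 listed genes within 2-fold of its mean level, 329 (41.8%) were lower, with a median log2 ratio of 0.50, and 4 including Cdkn1c itself were as low as it was. Its control level was above 69.5% of the listed symbols, and its Trrap-deleted level was above 30.7%. An annotated antisense gene, Gm44732, overlaps Cdkn1c on the opposite strand in GENCODE M21, and no source used here says if counting was stranded. The value for Cdkn1c may therefore hold reads of both.

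In a bulk sample, fewer cells of a type and less RNA per cell cannot be told apart, and this holds for each gene here. Markers of the ventral telencephalon, the source of cortical interneurons, were lower beside Cdkn1c. Of 9 such markers, 3 were listed and all 3 were lower (Lhx6, Dlx2 and Dlx5), with a summed level of 10.7 FPKM (control) and 2.35 (Trrap-deleted). The transcription factor gene Lhx6 had the highest level of them, at 7.06 and 1.71 FPKM. Dlx2 (1.95 and 0.358 FPKM) and Dlx5 (1.68 and 0.276 FPKM) were low in both libraries. Among all listed loci, 42.0% were lower. Gad1, Gad2 and Nkx2-1 were among the 6 not listed. The part of these cells in the Cdkn1c value was not tested.

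No other CDK inhibitor of 8 had a row, so Cdkn1a (p21), Cdkn1b (p27) and the Ink4 genes are not listed. The opponents of p57 in G1 were represented by few genes. Of 18 symbols for G1 and S cyclins, CDKs and E2F activators, 4 were listed, 3 of them lower and 1 higher. The median log2 ratio of these 4 was -0.76 beside 0.55 for all 2306 listed symbols. Among all listed loci, 42.0% were lower. Cdk4, the kinase of the D cyclins, stood at 691 FPKM in the control library against 353 in the Trrap-deleted one. Its row spans mm9 chromosome 10, 126497442 to 126508153, and whether that span holds reads of other genes was not checked. Cdc25a, a phosphatase that activates CDKs, was at 13.1 and 7.39 FPKM, and E2f3, an activator of S-phase genes, was at 15.6 and 9.60. Ccnd3, cyclin D3, was the exception, at 11.8 and 19.3 FPKM. Ccna2, cyclin A2, shared its row with Bbs7 and was left out of the count. Thus the inhibitor Cdkn1c and the kinase gene Cdk4 were both lower in this library. Their log2 ratios were -2.30 and -0.97.

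Ccng2 was the most abundant of the 4 genes in both libraries. Its level was 65.2 FPKM in the control and 29.97 FPKM in the Trrap-deleted library, a log2 ratio of -1.12, at mm9 chromosome 5, 93696283 to 93705257. The authors' deposited table gives Ccng2 a p-value of 3.01e-05 and a q-value of 0.000727. It ranked 225 from the lowest of 2306 log2 ratios. Among 572 listed genes within 2-fold of its mean level, 35 including Ccng2 were as low, and 287 (50.2%) were lower at all. No overlapping gene is annotated at Ccng2 in GENCODE M21, and the locus length in the table, 8975 bases, equals that gene model.

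Ccng1, the other G-type cyclin, differed in the opposite direction. Its level was 11.7 FPKM in the control and 20.6 FPKM in the Trrap-deleted library, a log2 ratio of 0.82, at mm9 chromosome 11, 40562054 to 40568813. The authors' deposited table gives Ccng1 a p-value of 1.49e-05 and a q-value of 0.000402. That ratio ranked 778 from the highest of 2306, and 177 of 781 listed genes within 2-fold of its mean level, Ccng1 included, were as high. In the control, Ccng2 stood at 5.60 times the level of Ccng1, and in the Trrap-deleted library at 1.46 times. The gap in FPKM level between these related cyclins was thus narrower in the Trrap-deleted library. No counting error can be put on these ratios.

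Partners of the G-type cyclins were mostly not listed. Of 16 symbols in that list, which holds both cyclins, subunits of protein phosphatase 2A, Gak, Mdm2, Mdm4 and Trp53, 3 were listed: 2 lower and 1 higher. The third beside the cyclins was Trp53, the gene of p53 itself, with 47.8 FPKM (control) and 19.6 FPKM (Trrap-deleted) (log2 ratio -1.29). Its row spans mm9 chromosome 11, 69373867 to 69405377. Whether that span holds reads of other genes was not checked, so the Trp53 value is uncertain to that extent. None of the phosphatase subunits had a row. Among all listed loci, 42.0% were lower.

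Ccng1 is a textbook p53 target, and the other genes of that list went both ways. Of 30 symbols, which include Trp53, the gene of p53 itself, 7 were listed, 4 higher and 3 lower. Their median log2 ratio was 0.57 beside 0.55 for all listed symbols. Without Ccng1, which was chosen from this contrast, 3 were higher and 3 lower. Among all listed loci, 58.0% were higher. The even split counts Trp53, the regulator and not a target, among the lower genes. It also counts Pmaip1, below 1 FPKM in both libraries, among the higher genes. Beside Ccng1, the higher genes were Bax, a cell death effector (44.8 and 66.6 FPKM in control and Trrap-deleted), Sesn2, a stress-induced regulator of growth signalling (1.505 and 3.25 FPKM), and Pmaip1, which encodes the death protein Noxa (0.119 and 0.438 FPKM). The lower genes were Trp53 itself, Trp53inp1, a stress-induced p53 partner (41.6 and 18.5 FPKM), and Psrc1, a microtubule-binding protein of the spindle (29.7 and 10.9 FPKM). Cdkn1a, Mdm2 and Btg2, which are standard targets, were not listed. Ccng1 was higher and the Trp53 row, with the limit given above, was lower in the same library. The activity of p53 protein was not measured, and a link between these values was not tested.

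Btg1 had the smallest difference of the 4. Its level was 23.2 FPKM in the control and 18.2 FPKM in the Trrap-deleted library, 78.1% of the control level and a log2 ratio of -0.36, at mm9 chromosome 10, 96079635 to 96085447. The authors' deposited table gives Btg1 a p-value of 0.00448 and a q-value of 0.0411, near their threshold of 0.05. By that q-value it was number 2250 of 2381 rows. Of the 323 lower genes within 2-fold of its mean level, 320 including Btg1 were at least as low, so hardly any gene of that level was listed with a smaller fall. A pair of genes annotated as Btg1-ps1 and Btg1-ps2 on the X chromosome are named as copies of Btg1 and were not listed. Reads could be split between such copies, so the Btg1 value is uncertain to that extent. If the libraries are rescaled to equal summed FPKM of the listed rows, its log2 ratio becomes -0.0101.

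Relatives and partners of Btg1 were almost all not listed. Btg1 was the only one of 6 BTG and TOB genes with a row, and Btg2, a marker of neurogenic divisions in the cortex, had none. Of 15 symbols for partners, which are mainly CCR4-NOT subunits, only Prmt1, an arginine methyltransferase that binds BTG proteins, had a row, with 227 FPKM (control) and 151 FPKM (Trrap-deleted). The deadenylase genes Cnot7 and Cnot8 were not listed.

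The plot of log2 ratio against level places the 4 genes among all listed symbols. Listed genes leave an empty band around 0 that is wider at low levels, because only loci past the authors' threshold are present. Btg1 sits at the edge of that band, while Cdkn1c lies far below it.

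**Figure D2:**
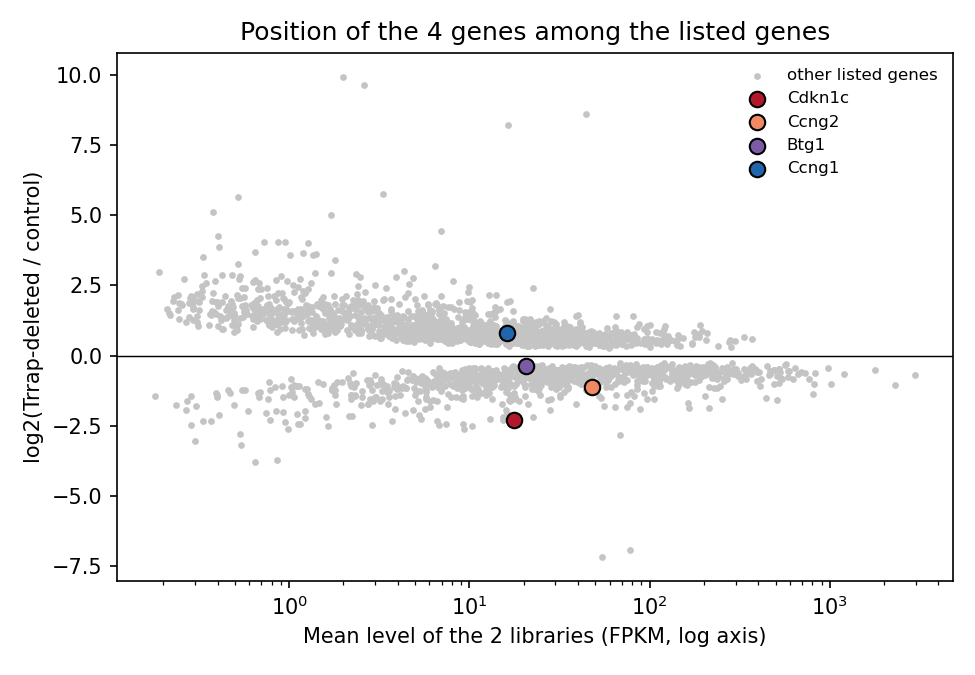
Each grey point is 1 of the other listed symbols, by mean FPKM of the 2 libraries (log axis) and log2 ratio of Trrap-deleted over control; coloured points are the 4 genes. Cdkn1c lies at -2.30, Ccng2 at -1.12, Btg1 at -0.36 next to the empty band, and Ccng1 at 0.82.

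The order of the 4 levels differed between the libraries. In the control it ran from Ccng2 through Cdkn1c and Btg1 to Ccng1, and in the Trrap-deleted library from Ccng2 through Ccng1 and Btg1 to Cdkn1c. Cdkn1c made up 22.8% of the summed FPKM of the 4 genes for the control against 8.03% for the Trrap-deleted library. Ccng1 made up 8.99% and 27.6%. Cdkn1c was at 2.53 times the level of Ccng1 in the control and at 0.291 times in the Trrap-deleted library, so this pair changed places. In the Trrap-deleted library Ccng1 and Btg1 were close, at 20.6 and 18.2 FPKM, and without replicates neighbours in either order cannot be told apart by their spread.

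Ccng2 and Btg1 both belong to the list of FoxO factors and their targets, which also had no common direction. Of 28 symbols, 7 were listed, 4 lower and 3 higher, with a median log2 ratio of -0.36 beside 0.55 for all listed symbols. That count includes Ccng2 and Btg1, which were chosen from this contrast, and the median is the ratio of Btg1. Without Ccng2 and Btg1, 5 were listed, 2 lower and 3 higher. Of all listed loci, 42.0% were lower. Besides Ccng2, the lowest were Fbxo32, a ubiquitin ligase subunit of wasting muscle (2.15 FPKM, control, and 0.647, Trrap-deleted), and Tsc22d3, a glucocorticoid-induced regulator (14.8 and 6.97 FPKM). The highest were Txnip, an inhibitor of thioredoxin (37.8 and 66.7 FPKM), Bcl6, a transcriptional repressor (2.79 and 4.61 FPKM), and Foxo1 itself (2.71 and 4.44 FPKM). The FoxO gene Foxo3 and the targets Cdkn1b and Sesn3 were not listed. Foxo1 RNA was higher while Ccng2 and Btg1 were lower. The activity of FoxO proteins was not measured, and a link between these values was not tested.

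Cyclin and CDK genes beyond the lists were gathered by symbol after their values were seen. Of 13 listed symbols for cyclins, CDKs, CDK inhibitors and CDC25 phosphatases, 10 were lower and 3 were higher. Of all 2381 listed loci, 42.0% were lower. The 13 include Cdkn1c, Ccng2 and Ccng1, which were chosen from this contrast. Ccng1 shared the higher side with Ccnd3 and with Ccny, cyclin Y, which measured 26.4 FPKM (control) and 37.8 (Trrap-deleted). Under a rescaling that sets the median log2 ratio of listed rows to 0, all log2 ratios fall by 0.54. Ccng1 then stands at 0.28, while Ccny turns to -0.022 and joins the lower side. Cdkn1c had the lowest ratio of the 13 and Ccng2 the next lowest.

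Mitotic cyclins and their partners were lower without exception among those listed. Of 20 symbols, 7 were listed. Each of the 7 was lower, and their median log2 ratio was -0.72, while of all 2306 listed symbols 958 were lower and the median was 0.55. The lowest ratios were those of Ccnf, cyclin F (16.4 and 7.94 FPKM in control and Trrap-deleted), Cdc20, an activator of the anaphase-promoting complex (69.7 and 36.5 FPKM), and Ccnb2, cyclin B2 (24.5 and 13.3 FPKM). The highest were Ccnb1 (64.2 and 42.9 FPKM), Plk1 (19.99 and 12.8 FPKM) and the proliferation marker Mki67 (70.2 and 43.1 FPKM). Ccng2 (log2 ratio -1.12) and Cdkn1c were each lower than every one of these 7 in log2 ratio. Of 15 pocket proteins and members of their repressor complex, Rbbp4, a histone-binding subunit, was listed, at 179 and 138 FPKM, and the retinoblastoma gene Rb1 was not listed.

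**Figure D3:**
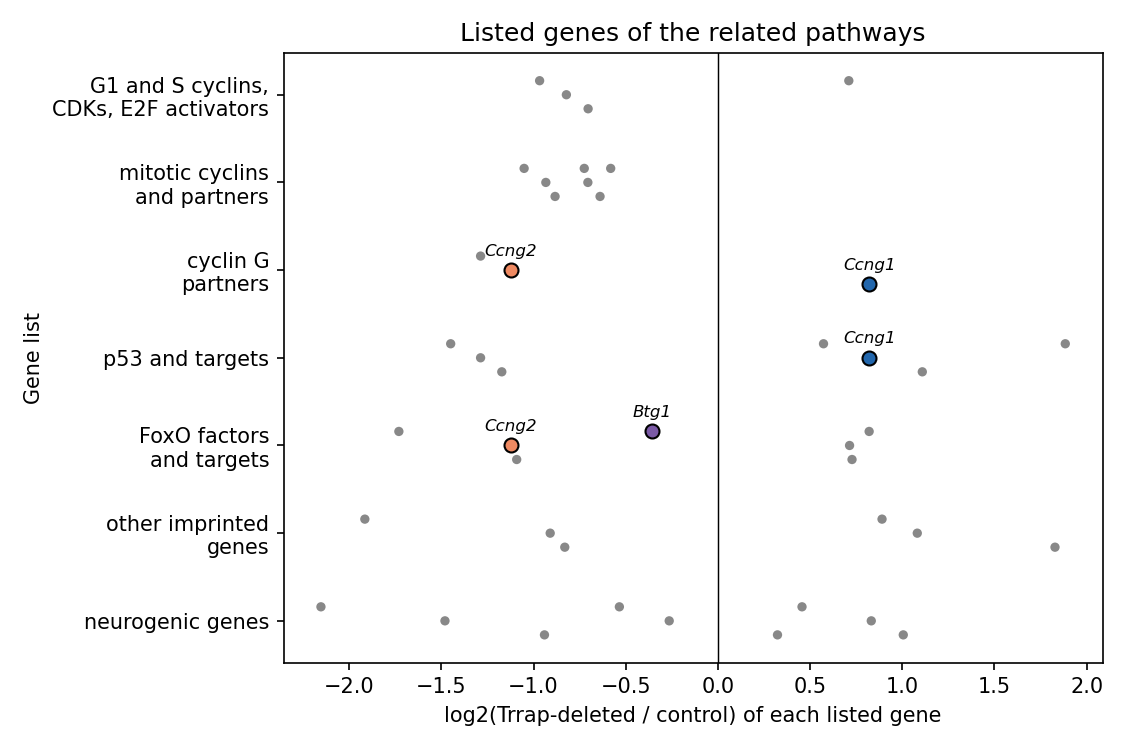
Each point is a listed gene of 1 list, placed by log2 ratio of Trrap-deleted over control (1 library each); rows are lists, points are spread vertically only to keep them apart, and coloured points are Ccng2, Ccng1 and Btg1. The 7 mitotic genes lie left of 0, while p53 and FoxO genes lie on both sides.

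Cdkn1c lies in an imprinted domain, in which genes are expressed from 1 parental allele. Of 17 symbols for its neighbours, none had a row of its own, and Kcnq1, Kcnq1ot1, Phlda2, Slc22a18 and Igf2 were not listed. A row shared by H19 and the microRNA gene Mir675 was the nearest listed locus, 880 kb away on mm9, and was higher (12.1 FPKM, control, and 39.6, Trrap-deleted). Reads of these overlapping genes cannot be told apart in that row. Cdkn1c and H19 are both expressed from the maternal allele, and their listed values went opposite ways. A link of either value to imprinting was not tested. The nearest listed loci of the other members also lay far off, with Eea1 571 kb from Btg1, Hmgb1-ps1 386 kb from Ccng1 and Naaa 989 kb from Ccng2.

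A list of imprinted genes elsewhere, with some regulators of imprinting, held genes on both sides. Of 39 symbols, 6 were listed, 3 lower and 3 higher, with a median log2 ratio of 0.03 beside 0.55 for all listed symbols. The lowest was a regulator, Zfp57, a zinc finger protein that protects methylation at imprinted loci, with 139.5 FPKM (control) and 37.0 (Trrap-deleted). The even count stands beside 42.0% lower among all listed loci. It and the median depend on including Zfp57, and also on including Dcn, which is counted among the meningeal markers below too. Imprinting in the cortex was not checked for these genes. Nnat, which encodes neuronatin, was at 803 and 452 FPKM, and the growth factor receptor adaptor Grb10 at 93.3 and 49.7. Higher genes were Trappc9, a trafficking subunit (12.7 and 23.5 FPKM), Rasgrf1, a Ras exchange factor (2.82 and 5.97 FPKM), and Dcn, a matrix proteoglycan (1.79 and 6.34 FPKM). Cdkn1c had a lower log2 ratio than any of these 6.

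Neurogenic and Notch pathway genes that act around cell-cycle exit were listed on both sides. They differ in role, so the counts of this list have no single meaning. Of 30 symbols, 9 were listed, 5 lower and 4 higher, with a median log2 ratio of -0.26 beside 0.55 for all listed symbols. Of all listed loci, 42.0% were lower. Under the rescaling to a median of 0, 7 were lower and 2 higher, and under that by summed FPKM 4 were lower and 5 higher. The lowest were Prox1, a homeobox gene of exiting progenitors and interneurons (3.53 FPKM, control, and 0.793, Trrap-deleted), the Notch effector Hey2 (4.48 and 1.60 FPKM) and Nhlh2, a bHLH gene of new neurons (12.3 and 6.41 FPKM). The highest were the Notch ligand Jag2 (2.73 and 5.49 FPKM), Sox4 (127 and 225 FPKM), a factor of neuronal differentiation whose locus in the table is also that of another listed gene and whose value is uncertain, and its relative Sox11 (144 and 198 FPKM). Dll1 and Hes5 were not listed.

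The labelled tissue was checked against markers of cortex and of other cells. Among all listed loci, 42.0% were lower and 58.0% higher. Of 10 cortical progenitor markers 3 were listed, 2 lower and 1 higher: Vim (632 FPKM in control, 387 in Trrap-deleted) and Prom1 (24.9 and 8.32 FPKM) were lower, and Slc1a3 (30.7 and 55.1 FPKM) was higher. Of 7 projection neuron markers 3 were listed and each was lower: Stmn2 (158 and 53.9 FPKM), Bcl11b (37.3 and 28.0 FPKM) and Neurod6 (312 and 260 FPKM). Under the rescaling by summed FPKM Neurod6 turns from a log2 ratio of -0.26 to 0.082. Both libraries thus held RNA of cortical cells. Both listed basal progenitor markers of 4 were higher, with Mfap4 at 69.0 and 124 FPKM, though the other, Neurog2, turns from a log2 ratio of 0.32 to -0.22 under the rescaling to a median of 0. Of 9 microglial markers 7 were listed and all 7 were higher, with a summed level of 8.52 and 22.9 FPKM, led by C1qb (2.39 and 6.09 FPKM). Of 6 meningeal markers 5 were listed and all 5 were higher, summing to 2.66 and 15.4 FPKM, led by Dcn. Levels were low: listed microglial markers reached at most 6.09 FPKM and meningeal ones 6.34, both in the Trrap-deleted library. Their lowest control levels were 0.357 and 0.0203 FPKM. Of 8 markers of endothelium and pericytes 2 were listed and both were higher, led by Pdgfrb (1.71 and 3.60 FPKM). The only listed erythroid marker was Hbb-y (96.8 and 157 FPKM), and that of the choroid plexus was Ttr (0.104 and 3.31 FPKM, at a locus much longer than the annotated gene and thus uncertain). Nhlh2, given above, was the only listed Cajal-Retzius marker. These markers moved with genotype beside all 4 genes, and their part in the values of Ccng1 and the others was not tested.

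Genes with the levels most like each member were sought by the distance between log2 FPKM values over the 2 libraries. For Ccng2 the nearest were Ube2c (66.2 FPKM, control, and 30.2, Trrap-deleted), an enzyme of the anaphase-promoting complex, Rrm2 (63.9 and 29.8 FPKM), a ribonucleotide reductase subunit, and Cdca3 (69.7 and 29.4 FPKM), a trigger of mitotic entry. For Cdkn1c they were Gm9027 (26.4 and 6.22 FPKM), a processed pseudogene whose reads may belong to its parent gene, Lbh (26.3 and 6.20 FPKM), a transcriptional cofactor, and Tmem44 (25.2 and 5.55 FPKM). Those of Btg1 were Plcxd2 (22.4 and 17.6 FPKM), Ints4 (24.5 and 18.2 FPKM), an Integrator subunit, and Pgap1 (24.0 and 18.96 FPKM). Ccng1 was nearest to Trappc2 (12.1 and 19.9 FPKM), Fgf11 (11.1 and 21.5 FPKM) and Ccnd3, the D cyclin given above. With 2 libraries such a likeness rests on 2 values per gene.

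The scaling of the libraries bears on the smaller differences. The median log2 ratio of the listed rows was 0.54, while the summed FPKM of these rows differed by a log2 ratio of -0.35, so the 2 ways of setting the libraries equal pull in opposite directions. Cdkn1c stood between -2.84 and -1.95 and Ccng2 between -1.67 and -0.78 over the scalings tried. Ccng1 stood between 0.28 and 1.17 and Btg1 between -0.90 and -0.0101. The direction of each gene was kept under each of these scalings, though for Btg1 the difference was close to 0 under the rescaling by summed FPKM. Adding 1 FPKM to both values cannot change a direction. The 2 rescalings use listed rows only, so they do not measure an imbalance between the libraries. The plot of ratios by scaling shows that the order of the 4 genes stays as it was, which follows from shifting all of them by 1 amount in 2 of the 3 alternatives.

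**Figure D4:**
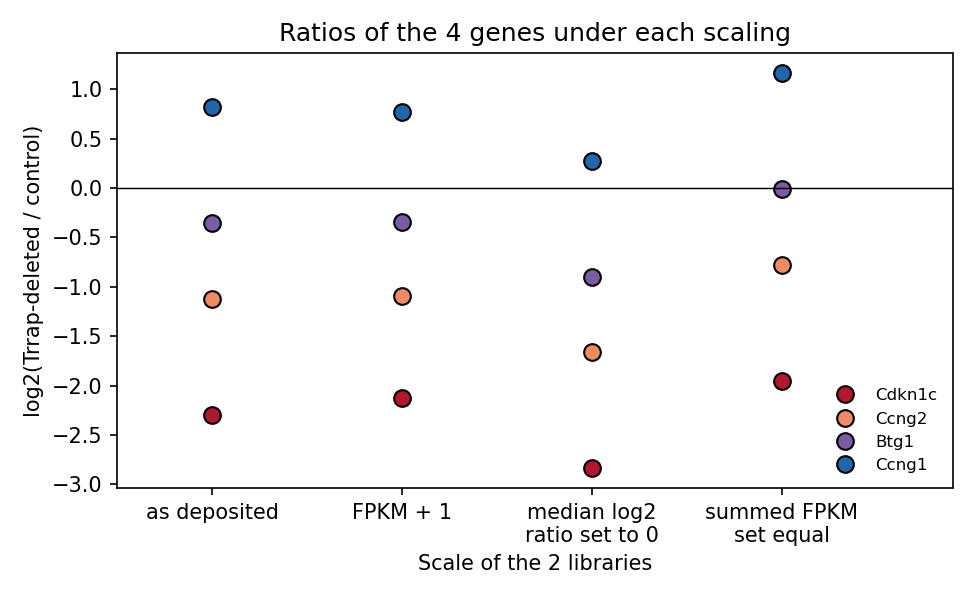
Points give the log2 ratio of Trrap-deleted over control of each gene as deposited, with 1 FPKM added to each value, with the median log2 ratio of listed rows set to 0, and with the summed FPKM set equal. Btg1 ranges from -0.90 to -0.0101 and Ccng1 from 0.28 to 1.17, and Cdkn1c stays at or below -1.95.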

How the data were processed

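RNA from 2 samples of embryonic cortex (2.5 µg per library) was sequenced after TruSeq library preparation, per the labels' protocols. TopHat2 and mm9 are named in the submitters' processing notes; which programs counted and tested is not given in the sources used. The table has Cuffdiff's column layout, and its 2 value columns were read as FPKM as deposited by the authors. The p-value and q-value of each row are those the authors deposited. Only rows marked significant are in the table, and depth is unknown.

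Ratios, ranks, list counts and distances were computed with Python 3.11.15 and pandas 2.3.3, and tested on simulated data. Of 2381 rows, 59 hold several symbols and were left out of lists; 11 symbols with several rows were represented by the row of highest mean FPKM, which left 2306 symbols above 0 in both libraries. The members and the 23 lists (291 symbols) were chosen with earlier results of these data known. Named genes were the members, Trrap, the 3 nearest genes of each member, all listed genes of pathway lists with up to 5, otherwise the 3 highest and 3 lowest, and the most abundant listed marker of each cell type. Outside this rule, named after their values were seen, were Ccny, the sex-linked genes, the nearest listed loci, the ventral telencephalic markers and the other listed markers of cortical progenitors, basal progenitors and projection neurons. Genes said to be not listed, and those named beside their list's count alone, were picked as examples. One gene of the neurogenic list is not reported here and was left out of its counts. Starts are given in 1-based counting.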

Additional observations from a re-analysis of the deposited data

How the results depend on the processing

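No paired analysis was possible because each genotype had 1 library and the labels give no shared replicate numbers; for the same reason no library could be left out. Adding 1 FPKM gave log2 ratios of -2.12 for Cdkn1c, -1.10 for Ccng2, -0.34 for Btg1 and 0.77 for Ccng1. Rescaling to a median log2 ratio of 0 gave -2.84, -1.67, -0.90 and 0.28, and rescaling by summed FPKM gave -1.95, -0.78, -0.0101 and 1.17, in the same order. At a q-value under 0.01, 3 of the 4 genes stayed (without Btg1), as did 65.2% of rows: 647 lower and 906 higher. That limit left 1 higher FoxO gene, 3 lower neurogenic genes, 0 BTG and TOB genes, 1 higher basal progenitor marker, 1 lower projection neuron marker and 1 higher marker of endothelium and pericytes. At 2-fold or more, 325 rows were lower and 606 higher. Counts under these 2 limits shrink because fewer rows pass. The rescaling to a median of 0, which lowers every log2 ratio, left 2 higher neurogenic genes and split the basal progenitor markers into 1 lower and 1 higher. Rescaling by summed FPKM made 1 projection neuron marker higher. At an FPKM of at least 1, 1 higher marker of endothelium and pericytes was left. The other counts of listed genes per list stayed within 1.5 times of those reported under these scalings and limits. With 1 FPKM added, the 3 nearest genes of each member were the same genes.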
